A study of Mus musculus with 1 sample.

Results

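Rspo3 Cxcl14 fibroblasts were 677 of the 10129 barcodes kept from a single-cell RNA library of mouse pancreas. They were 6.68% of the kept barcodes (95% exact binomial interval, 6.20 to 7.19%) and 12% (11.1 to 12.8%) of the 5662 barcodes that met the collagen gate described next. A barcode was kept with more than 800 and fewer than 10000 unique molecular identifiers (UMIs, each standing for 1 captured RNA molecule) and less than 15% of them mitochondrial. The gate asked for at least 10 UMIs of *Col1a1* and *Col3a1* together, 0 of the immune gene *Ptprc*, 0 of the mesothelial genes *Msln* and *Upk3b*, and at most 1 UMI over the cell cycle genes *Mki67*, *Top2a*, *Cenpf* and *Birc5*. A gated cell was a member when its UMIs of *Rspo3*, *Adamtsl3*, *Cxcl14*, *Fgf10*, *Steap4* and *Ms4a4d* summed to at least 3 and to at least 2 times each of a pair of other sums. The first of these sums was over *Mfap4*, *Fmo2*, *Meox2*, *Hmcn2*, *Lsamp* and *Slit2*, and the second over *Pcolce2*, *Efhd1*, *Efemp1*, *Pi16*, *Opcml* and *Adamts16*. The same rule with the sums exchanged gave 1678 Mfap4 Meox2 fibroblasts and 1066 Pi16 Pcolce2 fibroblasts, and 2241 gated cells fell in none of the 3 classes.

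The study examined the role of SCAP, the escort protein that carries the SREBP transcription factors to the Golgi when sterols are low, in the pancreas. The 1 single-cell sample analysed here came from 2-week-old mice with floxed *Scap* alleles (Scap f/f) and no Cre, so that *Scap* was not deleted, and is titled wildtype. Pancreata of several males and females were pooled, digested with collagenase and passed through dead cell removal and 10x Genomics 3′ library preparation. The library held 11789 barcodes and 51540177 UMIs, with 500 to 174899 UMIs and a median of 2483 UMIs per barcode. No replicate library and no second condition were analysed here. No difference below therefore has a p-value, and every interval is a 95% interval for counting error only, in which cells of the pool that share an animal are not told apart.

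Fibroblasts of the pancreas lie around acini, ducts, islets and vessels, make the collagen matrix, and send growth factors to the epithelium. R-spondins are secreted proteins that strengthen Wnt signalling through LGR receptors, and FGF10 is the mesenchymal factor on which growth of the embryonic pancreatic epithelium depends. In many organs, *Pi16* and *Dpp4* mark fibroblasts of the outer connective tissue sheets, and *Rspo3* and *Cxcl14* are found in other fibroblasts.

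Members were fibroblasts by their markers. Levels are given as CPM, the class's summed UMIs of a gene scaled to a total of 1000000 UMIs for the class. The reads were taken at the 3′ end and not scaled by gene length, so levels were compared between classes and not between genes. *Pdgfra*, the receptor that marks most fibroblasts, stood at 551 CPM in members and at 4.57 CPM in the 1466 kept barcodes with *Ptprc* and without the collagen gate, called immune droplets here (median depth 1814.5 UMIs, against 2655 UMIs in members). *Dcn*, which codes for the collagen-binding proteoglycan decorin, was detected in 99.9% of members at 5606 CPM. Of the 12 fibroblast markers, 12 were compared and 0 differed by more than 2-fold from Mfap4 Meox2 fibroblasts. *Fbn1* (1132 CPM against 3826) and *Thy1* (111 against 242) were more than 2-fold lower than in Pi16 Pcolce2 fibroblasts, and *Thy1* had a log2 ratio of -0.92 with members chosen and measured on separate UMIs. The 10 genes with the most UMIs in members included *Col1a2*, *Itm2a*, *Dcn*, *Fos* and *H19*, beside *Col1a1* and *Col3a1*, whose level the gate fixed.

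RNA of other cell types was present at low levels, except for acinar and red cell RNA. The 12 immune markers summed to 59.5 CPM in members, with *Cd52* the most abundant, against 6307 CPM in immune droplets. The choice of both by *Ptprc* UMIs helped to set this contrast. The 9 acinar markers summed to 12184 CPM in members, 12070 in Mfap4 Meox2 and 13225 in Pi16 Pcolce2 fibroblasts, with *Ctrb1*, a chymotrypsinogen, the most abundant at 3488 CPM in members. Red blood cell markers summed to 3779, 4258 and 5367 CPM in the same order. Immune droplets, which should make neither kind of RNA, held 33311 CPM of the acinar and 11500 CPM of the red cell markers. Endothelial markers summed to 109 CPM in members and 130 in Mfap4 Meox2 fibroblasts, and the 8 Schwann cell markers to 22.4 and 22.9 CPM. The doublet caller Scrublet marked 19 members (2.81%), against 3.96% of gated cells, and the marked cells were kept.

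The members were chosen by 6 genes, and the levels of those genes describe the choice and support nothing. *Rspo3* (GRCm38 chr10, 29452416 to 29535867, minus strand) stood at 367 CPM (interval 342 to 394) in members, 66.6 in Mfap4 Meox2 and 35.5 in Pi16 Pcolce2 fibroblasts, and a UMI was found in 60.9% of members. *Cxcl14* (chr13, 56288643 to 56296551, minus strand), which codes for a chemokine of epithelia and stroma, had 251 UMIs in members (120 CPM, 105 to 135), 20 UMIs in the Mfap4 Meox2 class and 2 UMIs in the Pi16 Pcolce2 class. *Fgf10* (chr13, 118669791 to 118792115, plus strand) stood at 358 CPM (333 to 385) in members, 38.0 in Mfap4 Meox2 and 123 in Pi16 Pcolce2 fibroblasts. The class is named for *Cxcl14*, yet 24.8% of members had a UMI of it, the lowest share of the 6 genes.

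*Adamtsl3* (chr7, 82335694 to 82614450, plus strand), which codes for a secreted matrix protein of the ADAMTS-like family without protease activity, stood at 689 CPM (654 to 726) in members, against 106 and 73.7 CPM. *Steap4* (chr5, 7960457 to 7982213, plus strand), a metalloreductase, stood at 221 CPM (201 to 242), against 27.7 and 21.6 CPM. *Ms4a4d* (chr19, 11536801 to 11558467, plus strand), of the MS4A family of membrane proteins, stood at 258 CPM (237 to 281), against 72.3 and 44.6 CPM. In immune droplets the 6 genes ranged from 0.857 to 5.43 CPM. A member rarely held every gene of the sum: 464 (68.5%) had a UMI of 3 or more of the 6 genes, 24 had UMIs of a single gene, and 10 had all 6.

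**Figure D1:**
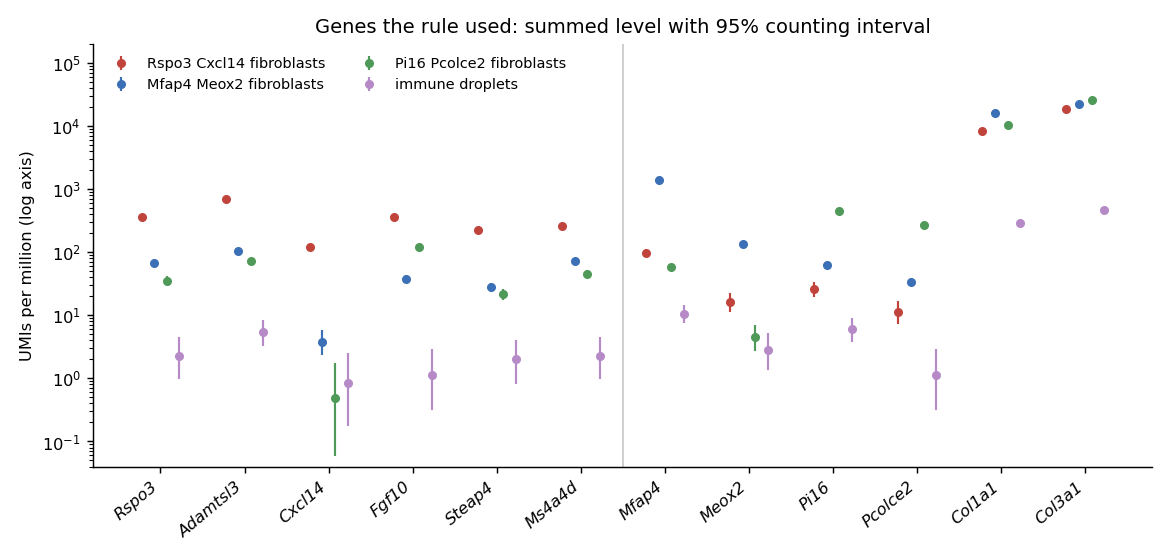
Summed levels in UMIs per 1000000 (CPM, log axis) of genes the rule used, with a point for each of the 3 fibroblast classes and for immune droplets and bars for the 95% Poisson interval of counting error. Left of the line are the 6 genes that chose the Rspo3 Cxcl14 fibroblasts, for which the members lie highest, as the choice of cells fixes, and immune droplets lie at 0.857 to 5.43 CPM, and right of it are genes of the other sums and the collagens of the gate.

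Members had sums of 3 to 27 with a median of 5. The 147 members with a sum of 3, just inside the threshold, had 243 CPM of *Rspo3*, and the 206 cells with a sum of 2 that met the other conditions, just outside it, had 190 CPM. *Rspo3* is part of the sum, so these levels follow from the sums and are given as a description. A further 997 gated cells had a sum of at least 3 that was not 2 times both other sums, and they had 223 CPM of *Rspo3*. Of the members, 229 had no UMI of the *Mfap4* sum and 407 had none of the *Pi16* sum. The limit on cell cycle UMIs removed 31 cells (4.38% of the cells that met the other conditions, 2.99 to 6.16%), against 3.62% in the Mfap4 Meox2 class and 2.47% in the Pi16 Pcolce2 class.

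To measure the 6 genes on UMIs that had not chosen the cells, each was left out of the sum in turn and read in the cells that the other 5 chose. *Cxcl14* stood at 88.9 CPM in the 628 cells so chosen, 11.2 times its level in the matching Mfap4 Meox2 cells (7.96 CPM) and 37.3 times that in Pi16 Pcolce2 cells (2.39 CPM). *Rspo3* stood at 279 CPM in 521 cells, against 97.5 and 43.5 CPM, and *Fgf10* at 265 CPM in 530 cells, against 70.3 and 149 CPM. *Adamtsl3* (497 CPM, against 175 and 102), *Steap4* (135, against 42.4 and 25.8) and *Ms4a4d* (197, against 88.8 and 51.9) were likewise highest in the cells chosen without them. On separate UMIs, members were chosen on a random part of each cell's UMIs and measured on the rest. That part holds fewer UMIs, so the minimums were lowered to 5 collagen UMIs and a sum of 2, for all 3 classes. The limits on *Ptprc*, mesothelial and cell cycle UMIs were read on the same part. This changed rule gave 750 cells, and it holds for every value given on separate UMIs. *Rspo3* then stood at 287 CPM, against 86.8 and 42.5 CPM, and *Cxcl14* at 80.7 CPM, against 10.2 and 0.934 CPM. Each gene was lower in these cells than in the members as chosen, and each was higher than in both other classes. The 6 genes were put together with earlier results of these data known, so these levels too are a description and no test of the class.

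Neighbour cells were found without any gene of the rule, from 30 principal components of 2000 variable genes. Among the 20 nearest neighbours of a member, 35.0% were members on average, 2.93 times the 12% that members make of gated cells. A further 9.68% were Mfap4 Meox2 fibroblasts, 4.29% Pi16 Pcolce2 fibroblasts and 51.0% cells of no class. These other classes and the cells of no class made up 29.6%, 18.8% and 39.6% of gated cells. Of the neighbours of Mfap4 Meox2 cells 65.5% were of their own class, and of those of Pi16 Pcolce2 cells 73.9%. The share of member neighbours was 28.8% for members with sums of 3 or 4, 36.7% for sums of 5 to 7 and 43.6% for sums of 8 or more, and 5.21% for gated cells with a sum of 0. Since the sum and the other genes come from the same cells, and deeper cells have larger sums, these shares are a description.

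Genes outside the rule were compared with each of the other fibroblast classes where the summed UMIs of both classes reached 50. Of 9991 genes compared with Mfap4 Meox2 fibroblasts, 218 (2.18%) were more than 2-fold higher in members and 508 (5.08%) more than 2-fold lower. Against Pi16 Pcolce2 fibroblasts, 9256 genes were compared, and 409 (4.42%) were higher and 411 (4.44%) lower. The median log2 ratio over all genes compared was 0.01 and 0.07. Of the 9111 genes compared with both classes, 62 were more than 2-fold higher in members than in either and 82 lower. A gene that reached 50 UMIs only through the class where it is high had to differ. The cells were chosen from the same counts, so these shares are the background for the counts of each gene list below and are no test of the class.

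**Figure D2:**
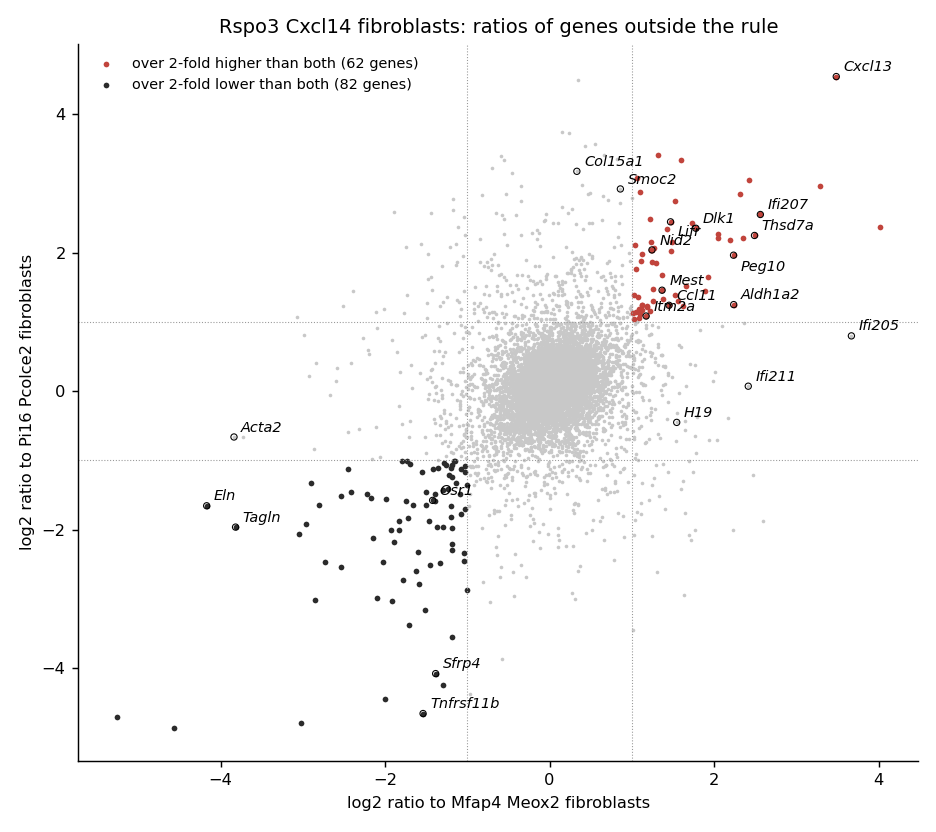
Each point is a gene outside the rule, with its log2 ratio of Rspo3 Cxcl14 to Mfap4 Meox2 fibroblasts on the x axis and to Pi16 Pcolce2 fibroblasts on the y axis, and dotted lines at 2-fold. The 62 red genes at the upper right were more than 2-fold higher than in both classes, among them Dlk1, Thsd7a, Ccl11 and Ifi207, and the 82 black genes at the lower left lower than in both.

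Of the imprinted growth genes, *Dlk1* and *Mest* were more than 2-fold higher in members than in both other classes. Of the 13 genes listed, 12 were found in the table and 11 compared, and 6 were more than 2-fold higher than in Mfap4 Meox2 fibroblasts and 0 lower (median log2 ratio 1.23), and 3 were higher than in Pi16 Pcolce2 fibroblasts and 0 lower (median 0.37). *Dlk1* (chr12, 109452823 to 109463336, plus strand), a membrane protein known as a brake on adipocyte differentiation, stood at 2014 CPM (1954 to 2076) in members, 587 in Mfap4 Meox2 and 394 in Pi16 Pcolce2 fibroblasts. That was 3.43 times (3.28 to 3.60) and 5.11 times (4.83 to 5.42) the other levels. Members had 0 to 38 *Dlk1* UMIs per cell with a median of 5, against a median of 1 in both other classes, and 93.5% of them had at least 1, so the level did not rest on a few cells. *Mest*, a hydrolase-fold protein tied to fetal growth, stood at 1344 CPM, against 521 and 488 CPM. *Plagl1*, a zinc finger transcription factor, stood at 853 CPM, against 430 and 365 CPM, and its log2 ratio to the Pi16 Pcolce2 class was 0.99 on separate UMIs.

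Some genes of this list were more than 2-fold higher than in Mfap4 Meox2 fibroblasts alone. *Igf2*, the fetal growth factor, stood at 2624 CPM in members, 965 in Mfap4 Meox2 and 2196 in Pi16 Pcolce2 fibroblasts. *H19*, the noncoding RNA of the same locus, stood at 5022, 1720 and 6861 CPM, and *Cdkn1c*, an inhibitor of cyclin-dependent kinases, at 990, 333 and 1005 CPM. For these 3 genes members lay with the Pi16 Pcolce2 class, more than 2-fold above the Mfap4 Meox2 class. *Peg10*, an imprinted gene derived from a retrotransposon and not in the list, stood at 88.1, 18.7 and 22.6 CPM, more than 2-fold higher than in both classes.

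Growth factor genes of the Wnt, FGF and hedgehog pathways differed gene by gene. Of the 30 other Wnt and R-spondin genes listed, 16 reached the minimum of UMIs and were compared with Mfap4 Meox2 fibroblasts. Of these, 1 was more than 2-fold higher in members and 4 lower (median -0.57), and among 17 compared with Pi16 Pcolce2 fibroblasts, 2 were higher and 6 lower (median -0.57). *Dkk2*, a secreted Wnt antagonist, stood at 170 CPM in members, 49.8 in Mfap4 Meox2 and 266 in Pi16 Pcolce2 fibroblasts. Of the secreted frizzled-related antagonists, *Sfrp1* stood at 106 CPM in members, 231 in Mfap4 Meox2 and 42.5 in Pi16 Pcolce2 fibroblasts, between the other classes. *Sfrp2* stood at 7.14 CPM in members, 13.9 in Mfap4 Meox2 and 149 in Pi16 Pcolce2 fibroblasts, and *Sfrp4* at 11, 28.6 and 185 CPM. *Axin2*, a common Wnt target, stood at 12.4 CPM in members, 23.1 in Mfap4 Meox2 and 30.5 in Pi16 Pcolce2 fibroblasts, the lowest in the class chosen for *Rspo3*.

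Of the 19 FGF and HGF genes listed, 13 were compared with each class. Against Mfap4 Meox2 fibroblasts 1 was more than 2-fold higher in members and 0 lower (median 0.32), and against Pi16 Pcolce2 fibroblasts 5 were higher and 1 lower (median 0.61). *Hgf*, the ligand of the epithelial receptor MET, stood at 56.2 CPM in members, 61.6 in Mfap4 Meox2 and 11.5 in Pi16 Pcolce2 fibroblasts. *Spry1*, a feedback inhibitor of receptor tyrosine kinase signalling, stood at 229, 183 and 42.7 CPM, and *Spry4*, of the same family, at 43.8, 31.3 and 6.00 CPM. *Fgf18* stood at 33.3 CPM in members, 10.7 in Mfap4 Meox2 and 44.9 in Pi16 Pcolce2 fibroblasts. *Dusp6*, a phosphatase that acts in the same feedback, stood at 40.01 CPM in members, 73.1 in Mfap4 Meox2 and 17.0 in Pi16 Pcolce2 fibroblasts.

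Of the 12 hedgehog genes listed, 10 were compared with Mfap4 Meox2 fibroblasts, and 0 were more than 2-fold higher and 2 lower (median -0.54), and 5 of 9 were higher and 0 lower than in the Pi16 Pcolce2 class (median 1.02). *Ptch1*, the hedgehog receptor and itself a target, stood at 30.0 CPM in members, 102 in Mfap4 Meox2 and 13.7 in Pi16 Pcolce2 fibroblasts, with a log2 ratio of 0.93 to the last on separate UMIs. *Gli1*, the transcription factor induced by the pathway, stood at 19.5, 31.7 and 5.52 CPM. *Gas1*, a hedgehog co-receptor, stood at 921, 718 and 274 CPM, so that for this gene the members lay highest.

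Of the 29 BMP and TGF-β genes listed, 25 were compared with Mfap4 Meox2 fibroblasts, and 0 were more than 2-fold higher and 12 lower (median -0.35), and of 22 compared with Pi16 Pcolce2 fibroblasts 1 was higher and 8 lower (median -0.63). Of the 12, *Chrdl1* turned to a log2 ratio of 0.49, from -1.29, and *Tgfb1* to 0.10, from -1.16, when members were chosen and measured on separate UMIs. *Bmp3*, which reached the minimum through the other classes and had to differ, had 1 UMI in members, against 18.3 CPM in Mfap4 Meox2 and 12.5 CPM in Pi16 Pcolce2 fibroblasts. *Tgfbi*, a matrix protein induced by TGF-β, stood at 11.4 CPM in members, against 81.6 and 8.64 CPM, and *Id3*, a BMP target, at 88.6 CPM, against 209 and 153 CPM. On separate UMIs the log2 ratio of *Id3* to the Mfap4 Meox2 class was -0.97. *Bmp4*, picked after its values were seen, stood at 53.8 CPM in members, 56.8 in Mfap4 Meox2 and 32.9 in Pi16 Pcolce2 fibroblasts. Pericyte and smooth muscle RNA moved with this list, as given with the contractile genes below. Without the cells that held it, 9 of 22 genes were lower and 1 higher than in the Mfap4 Meox2 class, and the median was -0.04.

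Of the 13 IGF genes compared with Mfap4 Meox2 fibroblasts, 3 were more than 2-fold higher in members and 1 lower (median 0.38), and of 12 compared with the Pi16 Pcolce2 class 4 were higher and 1 lower (median 0.47). *Igf1* stood at 573 CPM in members, 480 in Mfap4 Meox2 and 170 in Pi16 Pcolce2 fibroblasts. *Igfbp3*, an IGF carrier, stood at 293, 303 and 49.7 CPM, and *Pappa*, a protease that cleaves IGF-binding proteins, at 172, 132 and 48.0 CPM. For *Igf1*, *Igfbp3* and *Pappa* members lay with the Mfap4 Meox2 class, whereas for *Igf2* they lay with the Pi16 Pcolce2 class.

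Of 14 basement membrane genes listed, 13 were compared, and 1 was more than 2-fold higher and 1 lower than in Mfap4 Meox2 fibroblasts (median 0.54), and 5 were higher and 0 lower than in Pi16 Pcolce2 fibroblasts (median 0.54). *Col15a1*, a collagen of the basement membrane zone, stood at 1115 CPM in members, 886 in Mfap4 Meox2 and 123 in Pi16 Pcolce2 fibroblasts, 9.05 times (8.22 to 9.98) the last. *Nid2*, the linker protein nidogen, stood at 250 CPM in members, against 105 and 60.7 CPM, and was more than 2-fold higher than in both. *Col4a1*, a chain of the network-forming collagen, stood at 1300 CPM, against 870 and 393 CPM. Of the 9 markers of endothelial cells, which also make these collagens, 7 were compared with Mfap4 Meox2 fibroblasts (0 higher, 1 lower) and 5 with Pi16 Pcolce2 fibroblasts (2 higher, 0 lower). They summed to 109 CPM in members, 130 in Mfap4 Meox2 and 61.9 in Pi16 Pcolce2 fibroblasts, with *Plvap* the most abundant. Their part in the result was not tested.

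Of 17 elastic fibre genes listed, 16 were compared with each class. Against Mfap4 Meox2 fibroblasts 1 was more than 2-fold higher in members, 3 were lower and 12 lay within 2-fold (median -0.15), and against Pi16 Pcolce2 fibroblasts 2 were higher, 6 lower and 8 within (median -0.39). *Eln*, which codes for elastin, stood at 171 CPM in members, 3067 in Mfap4 Meox2 and 537 in Pi16 Pcolce2 fibroblasts, 18.0-fold and 3.15-fold lower in members. Pericyte and smooth muscle markers summed to 157 CPM in members and 416 in Mfap4 Meox2 fibroblasts, and without the cells that held at least 3 of these UMIs, a choice made after seeing the data, the Eln log2 ratio to Mfap4 Meox2 fibroblasts was -3.77 in place of -4.17. Members had at most 8 *Eln* UMIs in a cell and a median of 0, whereas the Mfap4 Meox2 cells reached 371 UMIs with a median of 2. *Bgn*, which codes for the proteoglycan biglycan, stood at 306 CPM in members, 1102 in Mfap4 Meox2 and 207 in Pi16 Pcolce2 fibroblasts. *Fn1*, which codes for fibronectin, stood at 713, 413 and 3852 CPM, 5.40-fold lower in members than in Pi16 Pcolce2 fibroblasts. *Smoc2*, a calcium-binding matricellular gene, stood at 337 CPM in members, against 185 and 44.4 CPM.

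Of 11 contractile genes listed, 9 were compared with Mfap4 Meox2 fibroblasts, and 8 were more than 2-fold lower and 0 higher (median -3.00), and of 6 compared with Pi16 Pcolce2 fibroblasts 1 was lower and 0 higher (median -0.44). Some of these genes reached the minimum of UMIs through the Mfap4 Meox2 class, such as *Actg2* with 1 UMI in members and 67 in that class, and had to differ, so the count and the median are a description. *Acta2*, which codes for smooth muscle actin and marks myofibroblasts, stood at 17.1 CPM in members, 245 in Mfap4 Meox2 and 27.1 in Pi16 Pcolce2 fibroblasts. Pericyte and smooth muscle markers moved with these genes, and 7 of the 8 compared were lower in members than in the Mfap4 Meox2 class. *Myh11*, *Actg2* and *Lmod1* are in both lists and among the lower genes of both, so the counts are not independent. The markers summed to 157 CPM in members, 416 in Mfap4 Meox2 and 84.0 in Pi16 Pcolce2 fibroblasts. The most abundant was *Notch3* in members and *Abcc9* in the Mfap4 Meox2 class, and none was at 0. At least 3 of these UMIs were found in 21 members (3.1%), 169 Mfap4 Meox2 cells (10.1%) and 16 Pi16 Pcolce2 cells (1.5%). With those cells left out, a choice made after seeing the data, 3 of 6 contractile genes were lower and 0 higher (median -1.26), and the log2 ratio of *Acta2* to the Mfap4 Meox2 class was -2.82 in place of -3.84. *Myh11*, 1 of the 8 lower genes, then changed direction, with the value given under the processing below. The UMIs by which cells were left out include those of the shared genes, so these changes follow in part from the choice. When members were chosen and measured on separate UMIs, the log2 ratio of *Acta2* was -2.43 to the Mfap4 Meox2 class and 0.24, in place of -0.66, to the Pi16 Pcolce2 class.

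**Figure D3:**
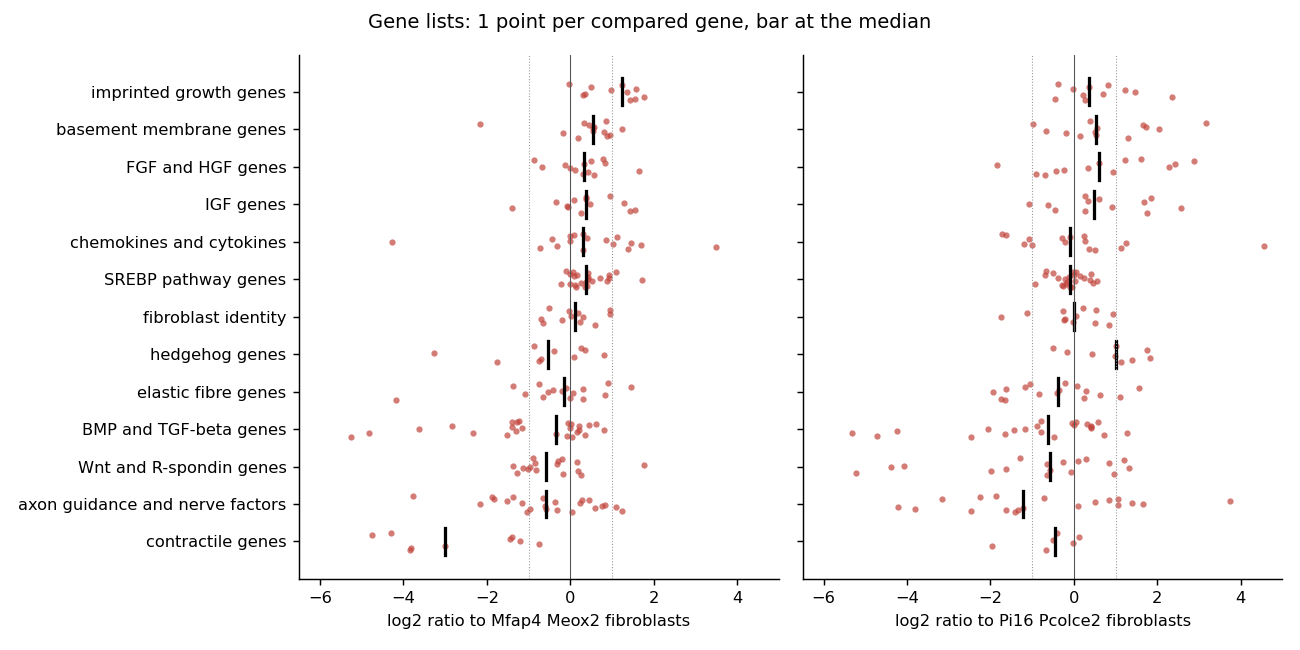
Log2 ratios of Rspo3 Cxcl14 to Mfap4 Meox2 fibroblasts (left) and to Pi16 Pcolce2 fibroblasts (right) for 13 gene lists, with a point for each gene compared, a black bar at the list's median and dotted lines at 2-fold. In the left panel the median of the imprinted genes (1.23) lies farthest right and that of the contractile genes (-3.00) farthest left, and in the right panel that of the hedgehog genes (1.02) lies farthest right.

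Chemokine genes were unevenly distributed. Of 23 chemokine and cytokine genes listed, 17 were compared with Mfap4 Meox2 fibroblasts, and 6 were more than 2-fold higher in members and 1 lower (median 0.32), and of 15 compared with Pi16 Pcolce2 fibroblasts 3 were higher and 5 lower (median -0.08). *Cxcl10*, among the 6, turned to a log2 ratio of -0.47, from 1.38, when each class was asked for a sum of at least 6 of its own genes. *Ccl11*, which codes for the eosinophil attractant eotaxin, stood at 587 CPM (555 to 621) in members, 214 in Mfap4 Meox2 and 248 in Pi16 Pcolce2 fibroblasts, a ratio of 2.74 and 2.36. *Cxcl12*, the ligand of CXCR4, stood at 239, 399 and 109 CPM, between the other classes. *Cxcl13*, the B cell attractant, stood at 224, 20.03 and 9.60 CPM, but 298 of its 471 UMIs in members (63.3%) came from 1 cell and 2.07% of members had a UMI. With the same minimum of 6 in each class the log2 ratio of *Cxcl13* was 0.08 and 0.24, in place of 3.49 and 4.55. *Ccl19*, a T cell attractant, had 3 UMIs in members and 146 in Mfap4 Meox2 fibroblasts. The immune markers, at 59.5 CPM in members, 101 in Mfap4 Meox2 and 58.8 in Pi16 Pcolce2 fibroblasts, were not higher in members than in the Mfap4 Meox2 class.

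Of 11 genes of the Ifi200 family, a cluster on chromosome 1 that codes for interferon-inducible nucleic acid sensors and their relatives, 6 were more than 2-fold higher in members than in Mfap4 Meox2 fibroblasts and the other 5 had 0 to 2 UMIs in members. The family was singled out after its values were seen. Of 12 genes listed, 11 were found in the table and 6 compared, and 6 were more than 2-fold higher than in Mfap4 Meox2 fibroblasts (median log2 ratio 2.29) and 3 were higher than in Pi16 Pcolce2 fibroblasts (median 1.13). *Ifi205* (107 UMIs in members, 21 in the Mfap4 Meox2 class) and *Ifi207* (71 and 30) reached the minimum of UMIs through the members and had to differ. The same held for *Ifi207* against the Pi16 Pcolce2 class (24 UMIs), so the counts and medians are a description. For 4 of the 6 genes compared, 60 bases around a motif in the promoter are shown. The stretches are from RefSeq for GRCm38.p6, on the minus strand, 5′ to 3′, and the capitals mark the letters GAAA, any 2 bases and GAAA, the core of the interferon-stimulated response element.
Ifi203, chr1:173942493-173942552: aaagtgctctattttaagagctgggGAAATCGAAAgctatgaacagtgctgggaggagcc
Ifi205, chr1:174031855-174031914: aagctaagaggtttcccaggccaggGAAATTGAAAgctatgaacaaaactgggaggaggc
Ifi207, chr1:173741816-173741875: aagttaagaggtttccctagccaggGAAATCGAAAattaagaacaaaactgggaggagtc
Ifi211, chr1:173913049-173913108: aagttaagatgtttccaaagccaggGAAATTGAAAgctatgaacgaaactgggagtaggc

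The 60 bases of Ifi205 and Ifi211 were identical at 54 positions, those of Ifi205 and Ifi207 at 52 and those of Ifi203 and Ifi207 at 39, the fewest of the pairs. The motif shown started 35 bases before the annotated start of transcription in Ifi203, 134 before it in Ifi205, 41 in Ifi207 and 37 in Ifi211. The Ifi205 window held a further match on the other strand, 23 bases after the start. The position given for Ifi203 depends on the start used. For Ifi203 that is the inner of 2 RefSeq starts, and the window at the outer start held no match. The stretch shown thus lies inside the gene as annotated by GENCODE (chr1, 173920407 to 173942672, minus strand). It is next to the GENCODE start of *Mndal* at 173942491, whereas RefSeq places the *Mndal* windows elsewhere, as given below. Searched on both strands in the 300 bases from 250 before to 50 after each start, the motif was found in 9 of the 10 family genes with a window and in 3.44% of 32851 windows of all genes. *Ifi206*, *Ifi208*, *Ifi213* and *Ifi214*, with 0 to 2 UMIs in members, were among the 9. Of the genes that chose the members, 5 had a window and *Cxcl14* alone held the motif, 172 bases before the start. A match of letters is a description and not a binding site.

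*Ifi207* (chr1, 173723427 to 173741747, minus strand) stood at 33.8 CPM in members, 5.72 in Mfap4 Meox2, 5.76 in Pi16 Pcolce2 fibroblasts and 9.14 in immune droplets, 5.91 and 5.87 times the levels of the other fibroblasts. *Ifi205* (chr1, 174011998 to 174031810, minus strand) stood at 51.0 CPM in members, 4.01 in Mfap4 Meox2 and 29.3 in Pi16 Pcolce2 fibroblasts, 12.7 times (7.92 to 21.4) the Mfap4 Meox2 level. *Ifi211* (chr1, 173896345 to 173913046, minus strand) stood at 67.2, 12.6 and 63.8 CPM and *Ifi204* (chr1, 173747293 to 173766943, minus strand) at 58.1, 13.0 and 75.8 CPM. For *Ifi204* and *Ifi211* members thus lay with the Pi16 Pcolce2 class and above the Mfap4 Meox2 class. The 5 family genes *Ifi206*, *Ifi208*, *Ifi209*, *Ifi213* and *Ifi214*, at 11.1 to 43.1 CPM in immune droplets, had 0 to 2 UMIs in members.

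*Ifi203* (chr1, 173920407 to 173942672, minus strand) stood at 130 CPM in members, 35.1 in Mfap4 Meox2, 47.5 in Pi16 Pcolce2 fibroblasts and 130 in immune droplets. *Mndal* (chr1, 173849126 to 173942491, minus strand) stood at 127, 40.1, 44.2 and 174 CPM. The *Mndal* gene as annotated by GENCODE spans *Ifi211* and overlaps *Ifi203*, so the split of UMIs among these genes is uncertain. The RefSeq promoter windows of *Mndal*, at 173879909 to 173880208 and 173880138 to 173880437, lie outside both of those genes. How alike the transcripts of the family are was not measured. Summed over the 11 family genes listed, members had 468 CPM (439 to 498), Mfap4 Meox2 fibroblasts 112, Pi16 Pcolce2 fibroblasts 267, gated cells of no class 294 and immune droplets 456 (434 to 479), so that members and immune droplets overlapped in their counting error. After thinning each cell to 800 UMIs, a family UMI was found in 27.8% of members, 7.51% of Mfap4 Meox2, 17.4% of Pi16 Pcolce2 cells and 30.4% of immune droplets, and before it in 60.4%, 23.1%, 56.2% and 54.8%. Other interferon-inducible genes, also gathered after values were seen, gave 2 higher and 0 lower of 14 (24 listed) against the Mfap4 Meox2 class and 1 higher and 0 lower of 16 against the Pi16 Pcolce2 class. The medians were 0.38 and 0.52. *Iigp1*, an interferon-inducible GTPase, was past 2-fold in both comparisons, at 30.0 CPM (63 UMIs) in members, 7.25 in Mfap4 Meox2 and 6.24 in Pi16 Pcolce2 fibroblasts, 4.14 times (2.73 to 6.37) and 4.81 times (3.001 to 7.91) the other levels. *Gbp2*, a guanylate-binding protein gene, stood at 36.2, 17.5 and 19.9 CPM, past 2-fold against the Mfap4 Meox2 class. *Isg15*, with 9 UMIs in members, stood at 4.29, 4.58 and 3.84 CPM, levels that overlap in their counting error. The immune markers summed to 59.5 CPM in members, against 6307 CPM in immune droplets. Members were chosen without and immune droplets with *Ptprc* UMIs, which helped to set this contrast. The part of immune RNA in the family's level was not tested.

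**Figure D4:**
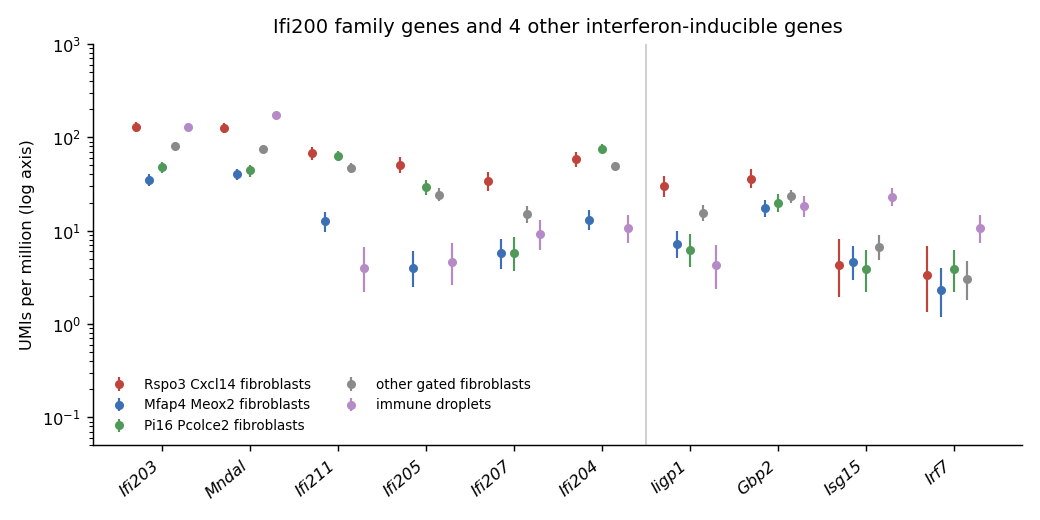
Summed levels in UMIs per 1000000 (CPM, log axis) of 6 Ifi200 family genes and, right of the line, Iigp1, Gbp2, Isg15 and Irf7, in the 3 fibroblast classes, other gated fibroblasts and immune droplets, with bars for the 95% Poisson interval of counting error. In members Ifi207 (33.8 CPM), Ifi203 (130 CPM), Mndal (127 CPM) and Ifi205 (51.0 CPM) lie above both other fibroblast classes and Ifi204 and Ifi211 well above the Mfap4 Meox2 class alone, Iigp1 (30.0 CPM) lies above both, and the intervals of the 3 classes overlap for Isg15 and Irf7.

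No list of receptors was counted, and the receptor genes given next are examples from the 62 genes more than 2-fold higher in members than in both other classes. *Chrm2*, a muscarinic acetylcholine receptor, stood at 128 CPM in members, 30.9 in Mfap4 Meox2 and 27.6 in Pi16 Pcolce2 fibroblasts. *Avpr1a*, a vasopressin receptor, stood at 40.01, 7.82 and 8.64 CPM, and *P2ry14*, a receptor for UDP-sugars, at 41.9, 7.82 and 5.04 CPM. *Avpr1a* and *P2ry14* were among the 12 genes with the highest ratios to Mfap4 Meox2 fibroblasts, and *Chrm2* and the next 3 genes were picked after their values were seen. Further receptors were *Chrm3* (665 CPM, against 309.6 and 305.5) and *Lpar4*, for lysophosphatidic acid (256 CPM, against 99.2 and 80.2). *Lifr*, the receptor of leukaemia inhibitory factor, stood at 245 CPM, against 88.3 and 44.9 CPM. Among genes other than these receptors, *Thsd7a*, a thrombospondin-repeat membrane protein, stood at 264 CPM, against 46.9 and 55.4 CPM, 5.62 and 4.76 times the other levels. *Itm2a*, a small membrane protein, stood at 6179 CPM, against 2738 and 2909 CPM.

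Of 27 axon guidance and nerve factor genes listed, 23 were compared with Mfap4 Meox2 fibroblasts, and 2 were more than 2-fold higher and 8 lower (median -0.58), and of 19 compared with Pi16 Pcolce2 fibroblasts 5 were higher and 10 lower (median -1.21). Some of the lower genes reached the minimum of UMIs through the class where they are high, such as *Ncam1* with 5 UMIs in members and 169 in the Mfap4 Meox2 class, and had to differ. *Robo1*, a receptor of SLIT ligands and more than 2-fold higher than in both classes, stood at 165 CPM in members, 77.4 in Mfap4 Meox2 and 79.0 in Pi16 Pcolce2 fibroblasts, and *Robo2*, more than 2-fold higher than in the Pi16 Pcolce2 class alone, at 388, 230 and 124 CPM. After thinning each cell to 800 UMIs the log2 ratio of *Robo1* was 0.91 and 0.84, no longer past 2-fold. *Slit2*, a ligand of these receptors, was one of the genes the rule held low in members. *Efna5*, a repulsive ephrin, stood at 33.8 CPM in members, 96.9 in Mfap4 Meox2 and 303 in Pi16 Pcolce2 fibroblasts.

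Adipocyte precursor genes held some that were higher and some that were lower in members. Of 23 listed, 19 were compared with Mfap4 Meox2 fibroblasts, and 4 were more than 2-fold higher and 1 lower (median 0.30), and of 18 compared with Pi16 Pcolce2 fibroblasts 4 were higher and 2 lower (median 0.20). The gene lower than in the Mfap4 Meox2 class was *Cd36*, a fatty acid transporter, with 8 UMIs in members and 48 in that class, and its log2 ratio of -1.26 turned to 0.013 with an upper limit of 100000 UMIs and to 0.087 after thinning. *Lpl*, which codes for lipoprotein lipase, was the most abundant, at 2320 CPM in members, 1168 in Mfap4 Meox2 and 1339 in Pi16 Pcolce2 fibroblasts, ratios of 1.99 and 1.73. *G0s2*, an inhibitor of triglyceride lipase, stood at 204, 154 and 40.3 CPM. *Dpp4* and *Ly6a*, which mark fibroblast progenitors in fat and fascia, stood at 87.6 and 437 CPM in members, at 26.5 and 142 in Mfap4 Meox2 and at 387 and 1069 in Pi16 Pcolce2 fibroblasts, between the other classes in both cases. *Pparg*, the master regulator of adipocytes and picked after its values were seen, stood at 9.05 CPM in members, 5.72 in Mfap4 Meox2 and 3.60 in Pi16 Pcolce2 fibroblasts.

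Of 15 retinoid genes listed, 10 were compared with each class. Against Mfap4 Meox2 fibroblasts 1 was more than 2-fold higher in members and 2 lower (median -0.07), and against Pi16 Pcolce2 fibroblasts 2 were higher and 2 lower (median 0.17). *Aldh1a2*, the enzyme that makes retinoic acid in mesenchyme, was higher than in both, at 65.7 CPM in members, 13.9 in Mfap4 Meox2 and 27.6 in Pi16 Pcolce2 fibroblasts.

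The SREBP pathway genes, the subject of the study, mostly differed by less than 2-fold between the classes. Of 25 listed, 23 were compared, and 2 were more than 2-fold higher and 0 lower than in Mfap4 Meox2 fibroblasts (median 0.37), and 0 of 23 differed that much from Pi16 Pcolce2 fibroblasts (median -0.09). *Scap* stood at 27.2 CPM in members, 24.8 in Mfap4 Meox2 and 27.8 in Pi16 Pcolce2 fibroblasts, *Srebf1* at 28.6, 22.5 and 30.5 CPM, and *Srebf2* at 53.8, 40.6 and 64.6 CPM. *Sqle*, an enzyme of cholesterol synthesis, stood at 34.3, 10.5 and 26.2 CPM, and *Scd1*, a fatty acid desaturase, at 51.4, 24.2 and 51.8 CPM. *Sqle* and *Scd1* were the 2 genes past 2-fold, and for both members lay with the Pi16 Pcolce2 class. The log2 ratio of *Scd1* to the Mfap4 Meox2 class was 1.09, and 0.90 on separate UMIs, and that of *Srebf1* was 0.34, and -0.65 after thinning to 800 UMIs.

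Transcription factor genes of position gave 3 higher and 3 lower of 27 (37 listed) against Mfap4 Meox2 fibroblasts and 1 higher and 2 lower of 26 against Pi16 Pcolce2 fibroblasts. *Ebf2*, a factor of adipose and stromal precursors, stood at 453 CPM in members, 168 in Mfap4 Meox2 and 599 in Pi16 Pcolce2 fibroblasts, and *Wt1*, which marks mesothelium-derived mesenchyme in several organs, at 121, 51.9 and 154 CPM. After thinning, the log2 ratio of *Wt1* to the Mfap4 Meox2 class was 0.97, no longer past 2-fold. *Osr1* was lower than in both, at 48.1 CPM in members, 129 in Mfap4 Meox2 and 144 in Pi16 Pcolce2 fibroblasts. The mesothelial markers summed to 41.4, 36.2 and 26.4 CPM in the same order, and their part in the *Wt1* levels was not tested. None of the 12 replication genes compared differed by more than 2-fold from either class, with a median of 0.44 against Mfap4 Meox2 and 0.60 against Pi16 Pcolce2 fibroblasts.

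Apart from *Eln*, which had 358 UMIs in members, the genes with the lowest ratios reached the minimum of UMIs through the other class. For these genes a low level in members follows from how they were ranked. *Kcnd2*, a potassium channel gene, had 1 UMI in members and 180 in Mfap4 Meox2 fibroblasts, and *Kcnip1*, of a potassium channel-interacting protein, had 2 against 231. *Art4* had 0 UMIs in members and 104 in Mfap4 Meox2 fibroblasts, 13.9-fold lower with the floor of 3 UMIs set in place of 0. *Akr1c18*, a steroid dehydrogenase gene, had 0 against 230 UMIs in Pi16 Pcolce2 fibroblasts, 38.6-fold lower with the same floor, and *Dact2* had 0 against 212, 35.6-fold lower. *Ccn2*, a matricellular target of TGF-β and YAP, stood at 2.38 CPM in members, 53.2 in Mfap4 Meox2 and 9.60 in Pi16 Pcolce2 fibroblasts. Of the 12 fibrillar and associated collagen genes compared, 1 was higher and 1 lower than in each of the other classes.

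Levels were also read along the sum of the 6 genes in all gated cells, from 1991 cells with a sum of 0 to 332 cells with a sum of 8 or more, with no condition on the other sums. *Dlk1* stood at 463 CPM in the first and 1596 in the last, *Mest* at 436 and 1150, and *Robo2* at 124 and 509. *Ifi207* stood at 3.21 and 36.7 CPM and *Thsd7a* at 45.5 and 285 CPM. *Eln* ran the other way, from 2612 to 212 CPM, as did *Bgn*, from 742 to 333, and *Acta2*, from 285 to 25.2. *Ccl11* stood at 204 CPM in the first, 471 at sums of 5 to 7 and 461 in the last, so that it was as high in the middle range as at the top. Depth moved with the sum, at a median of 2303 UMIs per cell in the first range and 5416.5 in the last, and its part in these levels was not tested.

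**Figure D5:**
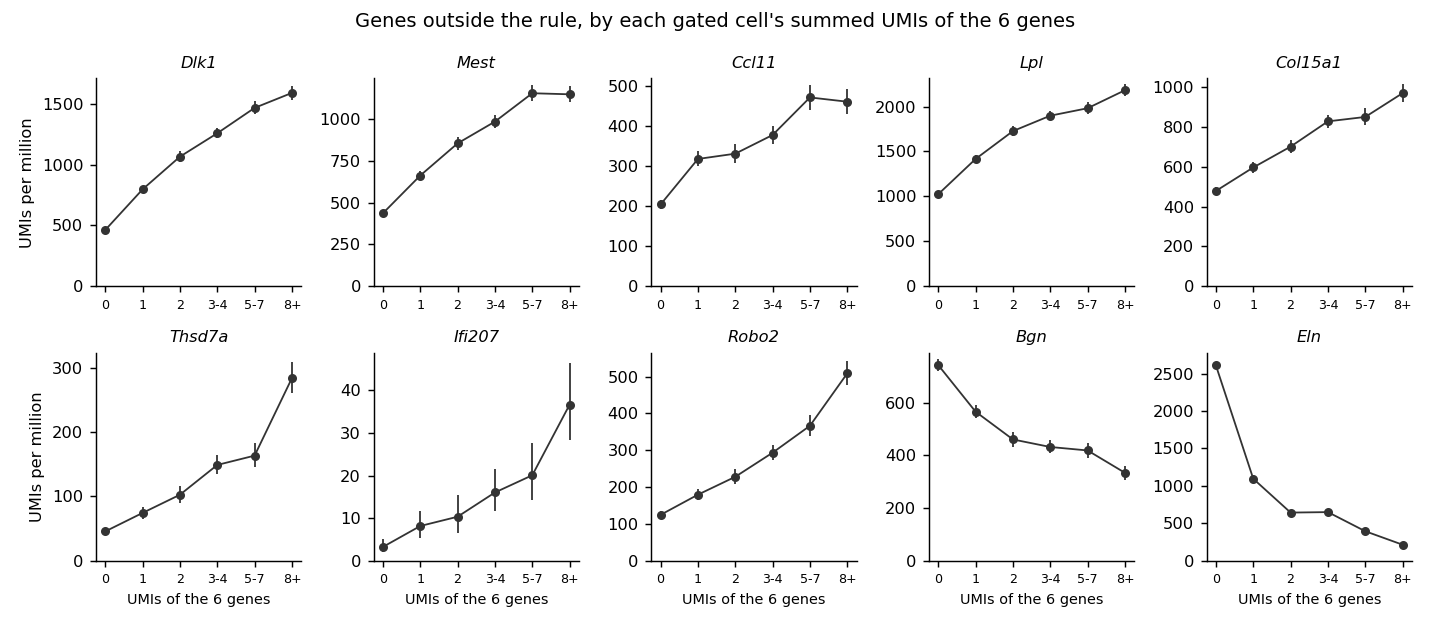
Summed levels in UMIs per 1000000 (CPM, linear axes from 0) of 10 genes outside the rule, in gated cells grouped by their UMIs of the 6 chosen genes, with bars for the 95% Poisson interval of counting error. Dlk1 runs from 463 CPM at a sum of 0 to 1596 CPM at 8 or more and Ifi207 from 3.21 to 36.7 CPM, and Eln runs the other way, from 2612 to 212 CPM.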

How the data were processed

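The authors deposited the UMI counts per gene and barcode of 1 library of pooled Scap f/f pancreata; per the submitters' processing notes these came from Cell Ranger 7.1.0 and build mm10. The paper's supplement gives the alignment parameters as the defaults of Cell Ranger. How these defaults treat overlapping genes and strand was not checked here. The barcode limits are those of the study's methods. The members, the compared classes and the gene lists were chosen with earlier results of these data known.

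UMI counts were summed per class and scaled to CPM, with exact Poisson intervals for levels, Clopper-Pearson intervals for shares and exact conditional binomial intervals for ratios, all at 95%. With 1 library and 1 group no test was run. Genes of the rule were left out of the comparisons, and the minimum was 50 summed UMIs over both classes. Ratios against 0 used a floor of 3 UMIs per class. Genes named were those of the rule, the 12 highest and 12 lowest ratios per comparison among genes with at least 100 UMIs, list members past 2-fold, the most abundant member of each list, the 10 most abundant genes, and *Scap*, *Srebf1*, *Srebf2*, *Pdgfra*, *Acta2* and *Fn1*. Unnamed gene models were left out. The text says where another gene was picked after its values were seen, as were the Ifi200 family and the other interferon-inducible genes.

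The scripts used Python 3.11.15, numpy 2.4.6, scipy 1.17.1, scikit-learn 1.9.0 and scanpy 1.11.5 (Scrublet, principal components), and were tested on simulated data. Alternatives changed the barcode limits, the rule's thresholds, doublet removal, scaling, thinning, the background, the filter and the fold. Promoter windows, 32851 of 300 bases, were those of RefSeq, and gene positions those of GENCODE for GRCm38. Some genes are not reported here.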

Additional observations from a re-analysis of the deposited data

How the results depend on the processing

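The share of gated cells was 12%, and fell to 5.25% (297 cells) with a sum of at least 6 and to 9.20% (521 cells) with the sum at least 3 times the others. The 6 chosen genes summed to 2013 CPM in members, to 1952 with an upper limit of 100000 UMIs, 1950.2 with a lower limit of 1500, 2344 with a sum of at least 6, 2214 as the mean of cells' own CPM, 1514 when chosen and measured on separate UMIs and 1462 when each gene was left out of its own choice. Genes higher and lower than in Mfap4 Meox2 fibroblasts, 218 and 508, became 123 and 217 after thinning (79 and 143 shared), 1218 and 1646 with a minimum of 1 UMI, 99 and 168 with a minimum of 200, and 699 and 1053 at 1.5-fold, and those lower became 315 (253 shared) on separate UMIs. Against Pi16 Pcolce2 fibroblasts, 409 and 411 became 186 and 222 after thinning (136 and 175 shared), 1445 and 1115 with a minimum of 1 UMI, 157 and 220 with a minimum of 200, and 1053 and 864 at 1.5-fold. Thinning and the higher minimum compare fewer genes.

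Of 5856 values of single named genes under the alternatives, 5304 lay within the interval reported, 546 moved beyond it and 6, of ratios past 2-fold as reported, changed direction. A further 92 of the 2234 values of ratios within 2-fold as reported took the other sign. The 6 log2 ratios to Mfap4 Meox2 fibroblasts were *Cd36*, 0.013 with the upper limit of 100000 UMIs and 0.087 after thinning, *Cxcl10*, -0.47 with a sum of at least 6, *Chrdl1*, 0.49, and *Tgfb1*, 0.10, on separate UMIs, and *Myh11*, 0.14 without cells rich in pericyte and smooth muscle UMIs, an alternative added after seeing the data. *Myh11* is itself among those markers. The cause of the changes was not tested. Of 245 named ratios past 2-fold as reported, 197 were past it with the level in immune cells subtracted, a setting that skipped 64 named ratios. On separate UMIs 215 were past it, after thinning 218, and with the upper limit of 100000 UMIs 226. The other settings kept 231 to 245. No paired analysis was possible because there was 1 library. Free RNA, animals of the pool and counting depth limit low levels. In ratios, a gene with no UMI in members was set to the floor of 3 UMIs, which is 1.43 CPM.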

Other observations

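Further genes outside the lists and groups above are given as values. *Ptger3*, a prostaglandin E receptor, stood at 69.5 CPM in members, 31.9 in Mfap4 Meox2 and 17.5 in Pi16 Pcolce2 fibroblasts, and *Adh1*, an alcohol dehydrogenase that also oxidises retinol, at 42.9, 15.5 and 10.6 CPM. Both were picked after their values were seen. *Adamts12*, a secreted metalloprotease, stood at 687 CPM in members, against 327 and 268 CPM, with a log2 ratio to the first of 0.93 on separate UMIs, and *Serpine2*, an inhibitor of thrombin and plasminogen activators, at 435 CPM, against 322 and 37.4 CPM. *Tenm4*, a teneurin of cell adhesion, stood at 146, 114 and 6.48 CPM, and *Adgrb3*, an adhesion receptor, at 386, 347 and 28.8 CPM, so that members lay with the Mfap4 Meox2 class for both. *Smpd3*, a sphingomyelinase, stood at 103, 17.2 and 378 CPM, between the other classes.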
